A study of Mus musculus with 6 samples.

Results

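Olfactory sensory neurons depend on a small set of transcription factors to switch on their receptor genes and on a small set of membrane proteins to bring the receptors to the cilia. The genes described here are 10 such regulators and chaperones. Ebf1, Ebf2 and Ebf3 encode Olf/Ebf transcription factors, Lhx2 and Emx2 encode homeodomain factors, and Ldb1 encodes the adaptor that links LIM-domain factors such as Lhx2 across enhancers. Rtp1, Rtp2 and Reep1 encode proteins that help odorant receptors reach the cell surface in transfected cells, and Stoml3 encodes a stomatin-like protein of olfactory cilia. Every probe set that the platform annotation assigns to 1 of these symbols was taken, which gave 18 of the 45101 probe sets on the array. These belong to 8 of the 10 genes, and the array names 18194 genes in all. No probe set matched Rtp1 or Rtp2 by symbol, Entrez ID or RefSeq accession, so both were not analysed here.

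Cells were sorted by flow cytometry with a fluorescent antibody to ICAM1 (CD54) from the dissociated olfactory epithelium of CD1 mice, an outbred stock with no transgene named in the labels. Each of 3 litters, taken at postnatal days 21, 22 and 24, was split into ICAM1-positive and ICAM1-negative cells, and RNA of each fraction was amplified in 2 rounds and hybridised to 1 Affymetrix Mouse Genome 430 2.0 array. The 2 groups of 3 arrays therefore share strain, tissue and litters, and differ in the sort; each array pools the cells of a litter, and litter cannot be told apart from age. The sort splits the epithelium into cells that carry ICAM1, a surface protein of horizontal basal cells and of some immune and endothelial cells, and all remaining cells, so each side is a mixture.

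Values are linear intensities scaled by the authors, in arbitrary units, and array medians lay between 87.9 and 102.8. Icam1 itself read 20.8 ± 10.9 without ICAM1 on the surface and 6974 ± 237 with it (SD, n = 3), which follows the sample titles; the free-text descriptions name the opposite sort. Of 9 mature sensory neuron markers tested, 8 were lower and 0 higher in the ICAM1-positive sorts, with summed intensities of 70293 to 76992 on the ICAM1-negative and 3876 to 6866 on the ICAM1-positive arrays. The mature marker that did not pass, Cngb1, lay below the array median on every array. All 8 immature neuron markers and all 6 neuronal precursor markers tested were lower too, against 20.8% of all genes. All 6 horizontal basal cell markers (summed intensity 249.7 to 677.8 against 74923 to 79081) and all 6 macrophage markers (832.8 to 1027 against 15649 to 20166) were higher. Over all genes 20.6% were higher. The 4 endothelial markers tested, Cdh5, Kdr, Tek and Cldn5, lay below the array median on all 6 arrays and bear no information on endothelial cells; 0 passed with all arrays, and Cldn5 passed without ICAM1-positive array 2 (adjusted p = 0.0484). In sorted bulk RNA, fewer cells of a type and less RNA per cell cannot be told apart.

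Odorant receptor genes are regulated through enhancers and promoters that carry adjacent Ebf and homeodomain sites, bound by Ebf factors and Lhx2, with Ldb1 joining the bound enhancers. Mature neurons express 1 receptor allele each. In transfected cells many receptor proteins are held in the endoplasmic reticulum unless accessory proteins of the RTP and REEP type are present.

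To show what the promoters of these genes look like, RefSeq promoter windows (GRCm38.p6) of 300 bases, from 250 before to 50 after a transcript start, were searched for 3 motifs, each of which reads the same on both strands. The windows cover 8 of the 10 genes in 12 windows; Ebf2 and Rtp1 had no entry. The palindromic core of the Ebf site, CCCNNGGG, was in 5 of these 12 windows (Lhx2, Ebf3, Ldb1, Reep1 and Rtp2) and in 13.7% of the 32851 windows of all genes. The longer Ebf palindrome, which is that core with T before it and A after it, was in 0 of the 12 windows and in 0.904% of all windows. The homeodomain core TAATTA was in 1 of the 12 (Emx2) and in 5.29% of all windows. A match is a match of letters and not a measured binding site. Lhx2 and Ebf1 have 2 windows each. The fixed letters of the core CCCNNGGG are all C or G, and base composition was not taken into account in these shares. The core lies upstream of a transcript start in Ebf3, Ldb1 and Reep1. Of these, Ebf3 was lower in the ICAM1-positive sorts, Ldb1 passed only in some fits (described with its values), and Reep1 did not pass. It also lies upstream in Rtp2, which has no probe set, and just after the start in Lhx2. The stretches of 30 bases in Ebf3, Ldb1 and Reep1 are printed with the core in capitals, at chr7:137314448-137314477 (minus strand), chr19:46039650-46039679 (minus strand) and chr6:71707605-71707634 (plus strand).
Ebf3: acagcgccgctCCCGGGGGcttcgagtttt
Ldb1: ccctccgcccgCCCTGGGGcctccttcgga
Reep1: gaggcagccctCCCTGGGGgttcggaggcc
The core starts 21 bases before the transcript start of the window in Ebf3, 47 before that in Ldb1 and 65 before that in Reep1. Ldb1 has 3 windows, and only the window printed from holds the core. The printed stretches lie inside the annotated spans of their genes, so these are not the outermost starts.

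Stoml3, whose 2 probe sets were both lower in the ICAM1-positive sorts, is shown for contrast. The 250 bases before its start, chr3:53488457-53488706 on the plus strand, hold none of the 3 motifs, so nothing is in capitals.
Stoml3: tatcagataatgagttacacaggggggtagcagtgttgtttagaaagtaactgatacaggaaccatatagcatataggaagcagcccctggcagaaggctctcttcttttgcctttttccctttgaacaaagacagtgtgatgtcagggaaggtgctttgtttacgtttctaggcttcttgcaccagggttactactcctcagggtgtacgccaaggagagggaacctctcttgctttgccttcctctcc

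The comparison asks how these regulators and chaperones are divided between the cells that carry ICAM1 and the remaining cells. Every probe set of Ebf1, Ebf2, Ebf3, Lhx2, Emx2 and Stoml3 was lower in the ICAM1-positive sorts, whereas Ldb1 missed the threshold in the unpaired fit and Reep1 stood at nearly the same intensity in both sorts. Each difference is the ICAM1-positive mean minus the ICAM1-negative mean of log2 values, with the standard error of a limma fit to all 38694 probe sets kept. The Benjamini-Hochberg adjustment covered those probe sets, and the threshold was an adjusted p of 0.05. All 18 member probe sets passed the filter on low intensities. Of them 15 were called lower and 0 higher, while 18.0% of all probe sets tested were called lower and 16.9% higher. Their log2 differences ran from -4.80 to -3.02, or falls of 8.11-fold to 27.9-fold. The median log2 difference was -3.81 over the 18 and -0.06 over all probe sets tested. The 3 ICAM1-negative arrays lay above the 3 ICAM1-positive arrays without overlap for 16 of the 18, against 26.5% of all probe sets tested. A log2 difference under -4 was reached by 8 of the 18 and by 1.08% of all probe sets. Counted by gene, with the probe set of the highest mean, 6 of 8 were lower (20.8% of all genes) with a median of -3.50. Without litter 1 the probe sets called lower over the whole array dropped from 6984 to 3678, and without litter 3 to 3915, while the members called were 15 and 14.

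**Figure D1:**
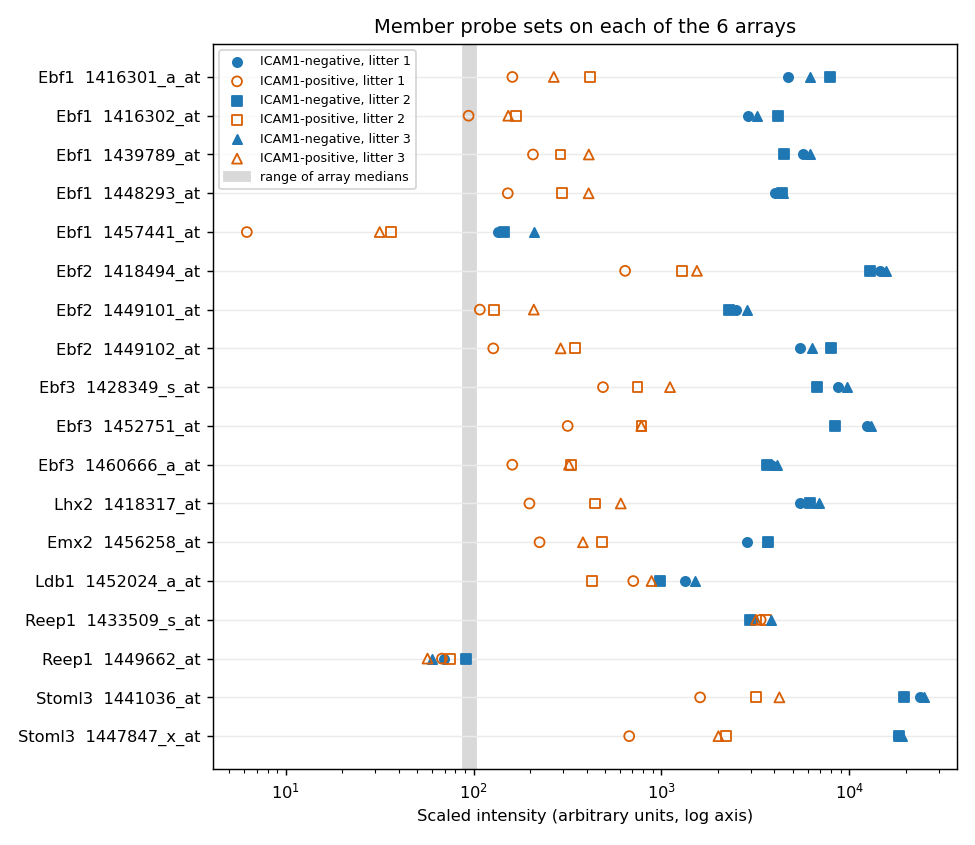
Scaled intensity (arbitrary units, log axis) of the 18 member probe sets on each of the 6 arrays; filled blue symbols are ICAM1-negative and open orange symbols ICAM1-positive sorts, the symbol shape gives the litter, and the grey band spans the array medians (87.9 to 102.8). The sorts are apart for 16 probe sets and overlap for both of Reep1.

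The Ebf factors bind the Olf-1 sites of many genes of sensory neurons, and Ebf1 (also called Olf-1) was the first of them to be described there. Ebf1 was covered by 5 probe sets. The one with the highest mean, 1416301_a_at, read 4735, 7933 and 6207 in the ICAM1-negative sorts of litters 1, 2 and 3, and 160.8, 415.2 and 267.2 in their ICAM1-positive sorts. Litter 2 was the highest of each sort, and the sorts did not overlap. Means were 6292 ± 1601 and 281.1 ± 128 (SD, n = 3), a log2 difference of -4.56 ± 0.40 (adjusted p = 0.00055). The other 4 Ebf1 probe sets gave differences from -4.66 to -3.06. For 1416302_at (-4.66 ± 0.29, adjusted p = 0.00023) the ICAM1-positive array of litter 1, at 94.0, lay below its array's median, so the size of that fall is uncertain. Probe sets 1416301_a_at, 1416302_at and 1448293_at were designed on 1 and the same sequence record and are not independent measurements.

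The dimmest Ebf1 probe set, 1457441_at, read 134.7, 145.8 and 210.5 where ICAM1 was absent and 6.2, 36.4 and 31.6 where it was present. All 3 ICAM1-positive values lay below their array's median, so only a bound holds: it was at least 1.66-fold lower, against the median of those arrays (-3.06 ± 0.71 as measured, adjusted p = 0.0195). Its call was lost without litter 2 (adjusted p = 0.0706), without litter 3 (0.0947) and without any single ICAM1-negative array (0.051 to 0.0647). It is the one member whose call depended on single arrays or litters among the 15 called.

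Ebf2 (O/E-3) was covered by 3 probe sets from a single sequence record. Probe set 1418494_at read 14514, 12841 and 15639 in the ICAM1-negative sorts of litters 1 to 3 and 640.6, 1283 and 1545 in the ICAM1-positive sorts. Litter 1 was the lowest of the ICAM1-positive arrays, and every ICAM1-positive value stayed far above the array medians. The log2 difference was -3.72 ± 0.36 (14331 ± 1408 against 1156 ± 466, SD, n = 3; adjusted p = 0.000744). The other Ebf2 probe sets had log2 differences of -4.15 ± 0.29 (1449101_at) and -4.80 ± 0.42 (1449102_at), the second being the largest fall of any member; 0.222% of all probe sets tested had a lower difference.

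Ebf3 (O/E-2) was also covered by 3 probe sets. With 1452751_at, ICAM1-negative sorts read 12410, 8412 and 13136 and ICAM1-positive sorts 316.8, 782.8 and 781.2. Litter 2 was the lowest ICAM1-negative and litter 1 the lowest ICAM1-positive array, with no overlap between sorts (-4.26 ± 0.42, adjusted p = 0.000819). The remaining Ebf3 probe sets, 1428349_s_at and 1460666_a_at, had log2 differences of -3.48 ± 0.34 and -3.90 ± 0.32. The suffix of 1428349_s_at marks probes shared by more than 1 transcript, so its signal may not come from Ebf3 alone. The 95% confidence intervals of the 11 Ebf probe sets overlapped across the 3 genes, and no order among Ebf1, Ebf2 and Ebf3 can be read from them.

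Lhx2 encodes the LIM-homeodomain factor needed for sensory neuron maturation and for receptor enhancer activity. Its probe set 1418317_at read 5488, 6197 and 6898 in ICAM1-negative sorts and 198.2, 442.2 and 607.4 in ICAM1-positive sorts. The sorts were far apart in each litter, by -4.79, -3.81 and -3.51 on the log2 scale in litters 1, 2 and 3. The fitted difference was -4.04 ± 0.43 (6194 ± 705 against 415.9 ± 206, SD, n = 3; adjusted p = 0.00106).

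Emx2 encodes a homeodomain factor that is needed for normal expression of many receptor genes. Intensities of 1456258_at were 2839, 3686 and 3648 in ICAM1-negative sorts and 224.4, 483.6 and 382.0 in ICAM1-positive sorts. As for Lhx2, litter 1 gave the lowest ICAM1-positive value, and no value of one sort reached the other. The difference was -3.28 ± 0.32 (3391 ± 478 against 363.3 ± 131, SD, n = 3; adjusted p = 0.000819).

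Ldb1 encodes the adaptor that binds Lhx2 and bridges enhancers, and it is used by many cell types besides neurons. Its single probe set, 1452024_a_at, read 1341, 979.0 and 1504 in ICAM1-negative sorts and 708.1, 424.7 and 885.6 in ICAM1-positive sorts. Litter 2 was the lowest of each sort, and the highest ICAM1-positive value lay just under the lowest ICAM1-negative one. The log2 difference was -0.96 ± 0.33 (1275 ± 269 against 672.8 ± 232, SD, n = 3), with a 95% interval from -1.78 to -0.14, and missed the threshold (adjusted p = 0.0724). In the fit paired by litter the same difference passed (adjusted p = 0.0221). The difference of Lhx2 exceeded that of Ldb1 in each litter, by -3.87, -2.60 and -2.74 on the log2 scale (mean -3.07 ± 0.70, SD, n = 3 litters). A two-sided exact permutation test of the 6 log ratios, which did not use the pairing by litter, gave p = 0.1, the smallest that 3 against 3 arrays allow.

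**Figure D2:**
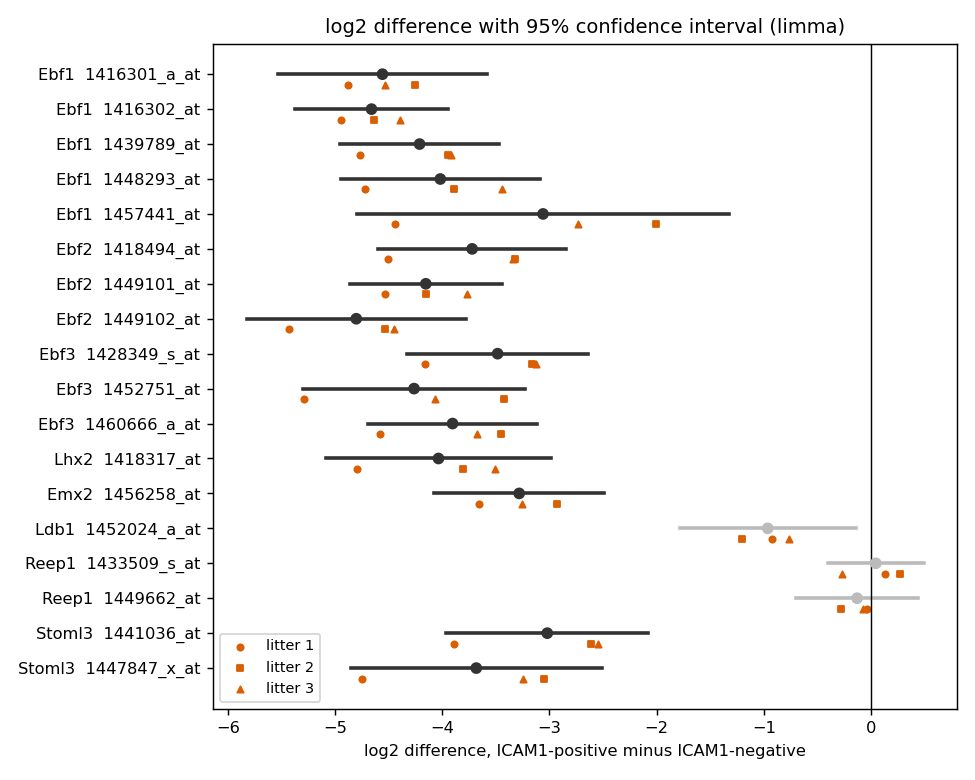
log2 difference (ICAM1-positive minus ICAM1-negative) of each member probe set with its 95% confidence interval from limma; black marks were called, grey marks were not, and small orange symbols give each litter's own difference. Ldb1 (-0.96) and the 2 probe sets of Reep1 (0.04 and -0.13) stand to the right of all others, which lie between -4.80 and -3.02.

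Among the chaperones and ciliary proteins, Stoml3 fell and Reep1 did not pass. Stoml3 probe set 1441036_at read 23898, 19569 and 24891 in ICAM1-negative sorts and 1607, 3195 and 4246 in ICAM1-positive sorts. Even the lowest ICAM1-positive value was well above the array medians, while the sorts did not overlap (-3.02 ± 0.38, adjusted p = 0.00203). Its second probe set, 1447847_x_at, went from 18529 ± 523 to 1634 ± 838 (SD, n = 3; -3.68 ± 0.48, adjusted p = 0.00219); its suffix marks probes that can bind other sequences as well.

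Reep1 encodes a membrane-shaping protein of the endoplasmic reticulum, known for its part in receptor export and in long motor axons. Probe set 1433509_s_at read 3085, 2974 and 3841 in ICAM1-negative sorts and 3375, 3600 and 3185 in ICAM1-positive sorts. The sorts overlapped: the ICAM1-positive array was higher in litters 1 and 2 and lower in litter 3. The log2 difference was 0.04 ± 0.18 (3300 ± 472 against 3387 ± 208, SD, n = 3; adjusted p = 0.877), with a 95% interval from -0.40 to 0.49. An interval of this width leaves out falls of the size seen for the Ebf genes, but it does not show that the sorts are equal. The s in its name marks probes shared by several transcripts. Probe set 1449662_at stood at 73.5 ± 16.2 and 66.6 ± 9.26, below the array median on every array, and bears no information on a difference (-0.13 ± 0.23, adjusted p = 0.711). By the probe set of the highest mean, the fall of Stoml3 exceeded the difference of Reep1 in each litter (-4.02, -2.89 and -2.28; mean -3.07 ± 0.88, SD, n = 3), and so did that of Ebf2 (-4.63, -3.60 and -3.07; mean -3.77 ± 0.79). For Lhx2 against Emx2 the litters gave -1.13, -0.88 and -0.25 (mean -0.75 ± 0.45). Each of these 3 comparisons had an exact permutation p = 0.1, again the smallest possible and also 0.1 after adjustment over the 4 pairs compared; the pairs were chosen with the values known.

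**Figure D3:**
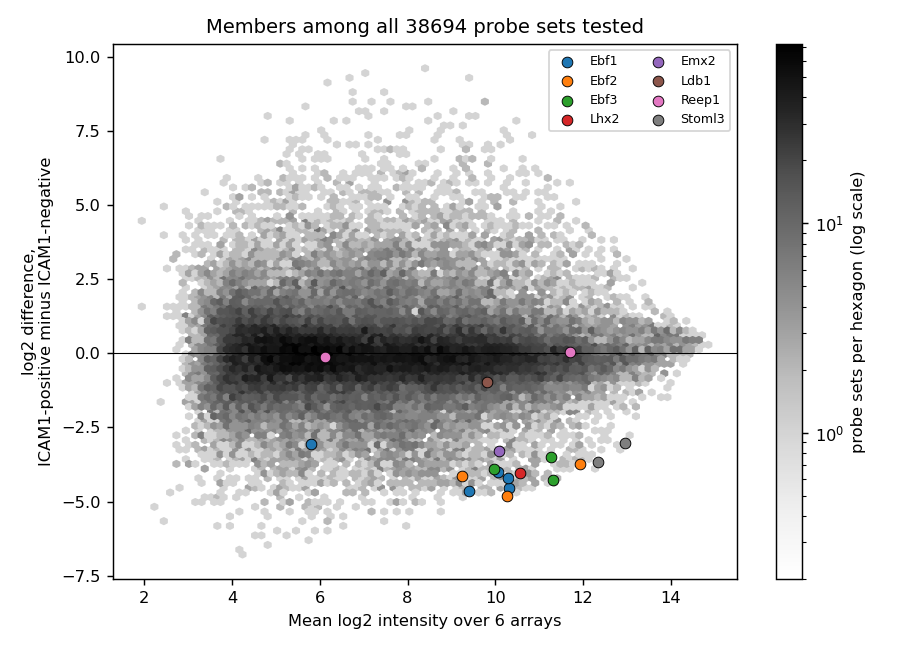
log2 difference against mean log2 intensity over the 6 arrays for all 38694 probe sets tested (grey hexagons, shaded by number on a log scale), with the member probe sets in colour. Ebf1, Ebf2, Ebf3, Lhx2, Emx2 and Stoml3 lie at the lower edge, Ldb1 nearer to 0 and the 2 probe sets of Reep1 at 0.04 and -0.13.

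The level left in the ICAM1-positive sorts was lowest in litter 1 for the members that fell, while the order of litters 2 and 3 varied. Ebf1 probe set 1457441_at was left out here, since its ICAM1-positive values all lay below the array median and give no litter order. Expressed as a percentage of the ICAM1-negative array of the same litter, the median over the other 14 probe sets called lower was 3.75% in litter 1, 8.13% in litter 2 and 8.31% in litter 3. Litter 1 had the lowest percentage for these 14, from 2.32% for Ebf2 (1449102_at) to 7.91% for Emx2. The highest percentage was in litter 3 for 8 of them, such as Lhx2, and in litter 2 for 6, such as Emx2. With values under the array median set to it, a check chosen after seeing the data, litter 1 was again the lowest for 14. Over the 4525 probe sets called lower whose ICAM1-positive values were not all below the array median, litter 1 was the lowest for 44.6%. Of these 4525, the highest percentage was in litter 3 for 1842 and in litter 2 for 1685. With low values set to the array median, litter 1 was the lowest for 1885 of them. The 14 member probe sets belong to 6 genes read on the same arrays, so they are not separate observations of a litter. Neuron markers moved with the members: litter 1 was the lowest for 7 of 8 mature markers (medians 4.77%, 7.83% and 8.58% in litters 1, 2 and 3) and for 7 of 8 immature markers (4.83%, 7.19% and 7.72%). Omp, the olfactory marker protein gene, stood at 5.10%, 11.0% and 9.72% in the 3 litters, beside 3.61%, 7.14% and 8.81% for Lhx2. By intensity, Omp was lowest in litter 2 of the ICAM1-positive sorts (441.5, 369.8 and 893.4 in litters 1, 2 and 3). Its ICAM1-negative intensity was lowest in litter 2 too (8657.6, 3364.5 and 9189.2), which raises the percentage of that litter. The part of remaining neurons in these levels was not tested.

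**Figure D4:**
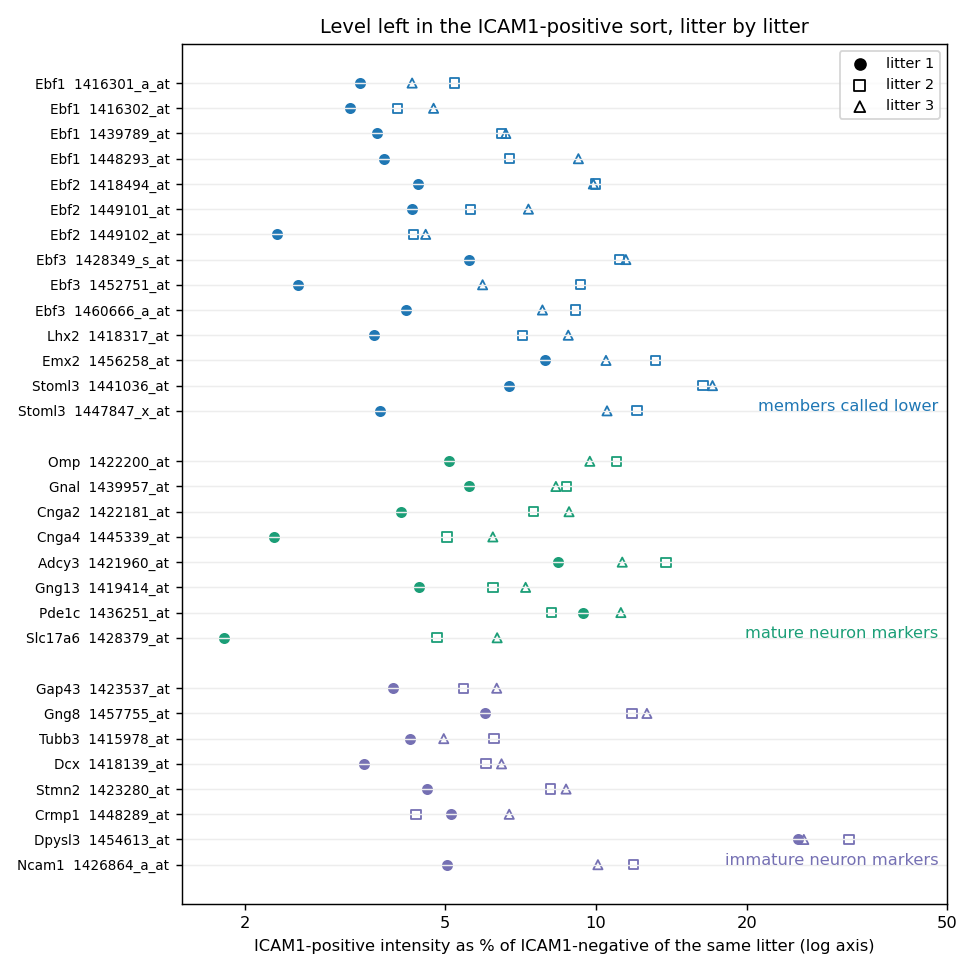
Intensity in the ICAM1-positive sort as a percentage of the ICAM1-negative sort of the same litter (log axis) for 14 of the 15 member probe sets called lower (without 1457441_at, whose ICAM1-positive values lay below the array median), 8 mature neuron markers and 8 immature neuron markers; each symbol is a litter. The filled circle of litter 1 is the leftmost in these 14 member rows, where the medians were 3.75%, 8.13% and 8.31% in litters 1, 2 and 3.

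Genes with the most similar profiles were sought by Euclidean distance between centred log2 values over the 6 arrays, 3 for each member with a probe set. Such likeness is set mostly by the difference between the sorts. Nearest to Lhx2 were the potassium channel subunit gene Kcnmb2 (distance 0.16), the glycosyltransferase gene Galnt15 (0.20) and the homeobox gene Uncx (0.27). Ebf2 was nearest to the transcription factor gene Olig1 (0.25) and the ephrin receptor gene Epha5 (0.29). The nearest genes of Stoml3 were Fstl5 (0.16), 5730403I07Rik (0.19) and Jakmip1 (0.29), those of Emx2 began with the claudin gene Cldn9 (0.23) and the kinesin gene Kif5a (0.28), and those of Ebf1 and Ebf3 with Iqck (0.39) and D430019H16Rik (0.39). All 18 genes found for these 6 members were themselves called lower, against 20.8% of all genes. Pearson's r with the member lay between 0.9966 and 0.9996 over 6 arrays. Both follow from choosing the genes by likeness to the member. Galnt15 (27.2, 68.3 and 82.0) and D430019H16Rik (21.1, 59.0 and 69.0) lay below the array median on every ICAM1-positive array, so their distances rest partly on dim values. Ldb1 was nearest to Gpr137 (0.14), Cmip (0.18) and Dnal4 (0.22), none of which passed the threshold (adjusted p = 0.087, 0.0649 and 0.0766). Reep1 was nearest to the ubiquitin ligase gene Ube4b (0.08), the splicing-related gene Dnajc8 (0.09) and the mRNA decay gene Patl1 (0.09), and none of these passed either (adjusted p = 0.998, 0.928 and 0.964).

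Partners and relatives of the members were divided between the sorts as well. Of 38 such genes tested, out of 43 listed, 21 were lower and 8 higher in ICAM1-positive sorts, against 20.8% and 20.6% of all genes, with a median log2 difference of -0.88. Without litter 1 the counts were 13 lower and 3 higher, and without litter 3 they were 13 and 2. Mature neuron markers fell (8 of 9) and horizontal basal cell and macrophage markers rose (6 of 6 each). Omp, Gnal, Adcy3 and Cnga2 stand in both the partner lists and the mature marker list, so these counts overlap. The part of these cell types in the differences was not tested.

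Among genes next to the Ebf factors, Ebf4, the remaining family member, read 2800, 2047 and 2379 in ICAM1-negative and 122.6, 161.7 and 267.5 in ICAM1-positive sorts, a fall of 3.78 ± 0.33 (adjusted p = 0.000534). Zfp423, a zinc finger protein that binds Ebf1, fell by 2.32 ± 0.32, with 2 of 3 ICAM1-positive arrays below the array median. Its relative Zfp521 went the other way, from 70.2, 95.1 and 71.8 to 173.5, 283.4 and 205.1, and was at least 2.24-fold higher (1.46 ± 0.25, adjusted p = 0.00672; 0.0766 without litter 3). So 2 of 3 were lower and 1 higher, against 20.8% and 20.6% of all genes. All 4 genes known for Ebf sites in their promoters fell: the channel gene Cnga2 (-3.95 ± 0.33), Gnal, the G protein gene of odorant transduction (-3.76 ± 0.24), Omp (-3.61 ± 0.52) and the cyclase gene Adcy3 (-3.19 ± 0.24). Omp missed the threshold without litter 1 (adjusted p = 0.0518).

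Cofactors of Ldb1 were mixed. Of 9 tested 4 were lower and 1 higher, against 20.8% and 20.6% of all genes, with a median of -0.70. Lmo4, which encodes a LIM-only protein that binds Ldb1, rose from 558.7, 254.8 and 535.3 to 3036, 1412 and 2644 (2.41 ± 0.44, adjusted p = 0.00796). Litter 2 was the lowest of each sort, as it was for Ldb1, and the call was lost without litter 1 (adjusted p = 0.0571) or litter 3 (0.0672). The related Lmo2 fell from 1498, 1852 and 1510 to 336.4, 357.5 and 575.3 (-1.97 ± 0.26, adjusted p = 0.00246), and Lmo1 fell by 1.45 ± 0.40 (adjusted p = 0.0369). Ssbp2 (-0.84 ± 0.17) and Ssbp3 (-0.70 ± 0.16), whose products stabilise Ldb1, fell as well. The calls of Lmo1, Ssbp2 and Ssbp3 were lost without litter 1 (adjusted p = 0.101, 0.114 and 0.115) or litter 3 (0.164, 0.12 and 0.144). Lmo1 also missed the threshold without ICAM1-negative array 1 (0.104), 2 (0.0552) or 3 (0.104) or ICAM1-positive array 3 (0.0685). Ssbp3 did so without litter 2 (0.0918), without ICAM1-negative array 2 (0.0533) or 3 (0.0599), without any single ICAM1-positive array (0.0558 to 0.0662) and with its probe sets averaged (0.27). Ssbp4 (-0.18 ± 0.23) and Rlim, a ubiquitin ligase gene acting on this complex (-0.01 ± 0.16), did not pass. Ldb2 (-0.76 ± 0.50) and Lhx9 (-0.30 ± 0.38) were below the array median on every array; Ldb2 passed only without ICAM1-positive array 3 (-1.31, adjusted p = 0.0234).

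**Figure D5:**
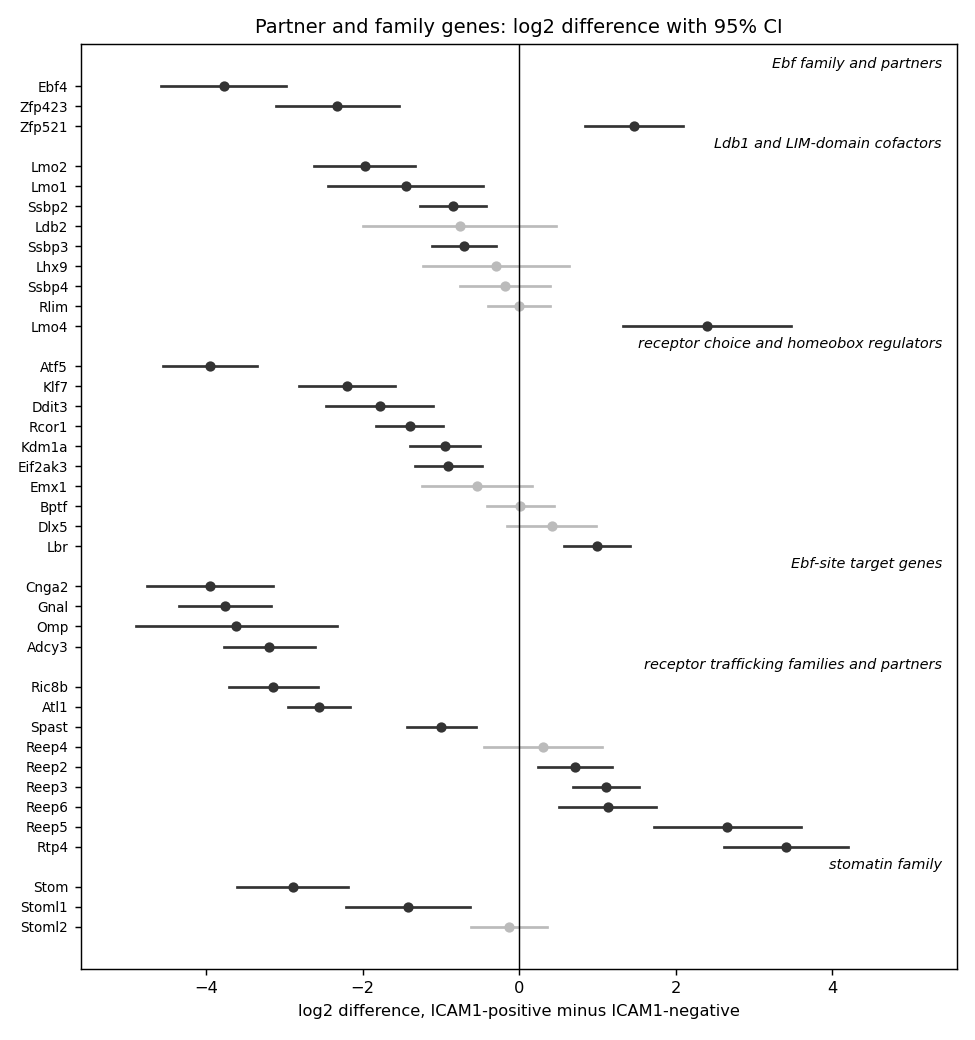
log2 difference (ICAM1-positive minus ICAM1-negative) with 95% confidence interval for the 38 partner and family genes tested, grouped by list; black marks were called and grey marks were not. Lists differ in their make-up: all 4 Ebf-site target genes are below 0, while Rtp4 and the Reep genes other than Reep1 are above it, Reep4 without passing and Reep2 with both sorts near background.

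Of 10 genes tested that act in receptor choice or as related homeobox regulators, 6 were lower and 1 higher. Over all genes 20.8% were lower and 20.6% higher. Atf5, the transcription factor gene of the receptor-triggered stress response that stabilises receptor choice, fell from 6542, 6779 and 8991 to 425.2, 411.5 and 619.2 (-3.95 ± 0.25, adjusted p = 0.00023). Eif2ak3, the kinase gene upstream of it, also fell (-0.91 ± 0.17), as did Ddit3, another gene of that response (-1.78 ± 0.28). So did the demethylase gene Kdm1a (-0.95 ± 0.18), its cofactor gene Rcor1 (-1.40 ± 0.17) and Klf7, a zinc finger factor gene of olfactory neurons (-2.20 ± 0.25). Lbr, which encodes the lamin B receptor and is shut off in mature sensory neurons, rose from 1288, 1490 and 1392 to 2578, 3130 and 2615 (0.99 ± 0.17, adjusted p = 0.00691). Leaving out litter 1 ended the calls of Kdm1a (adjusted p = 0.0883), Eif2ak3 (0.106) and Lbr (0.0766), and leaving out litter 3 those of Kdm1a (0.11), Eif2ak3 (0.0928), Lbr (0.0735) and Ddit3 (0.0536). Emx1 (-0.53 ± 0.29), the relative of Emx2, did not pass with all arrays but did without ICAM1-positive array 1 (-0.83, adjusted p = 0.0345). Dlx5 (0.41 ± 0.23) and Bptf (0.01 ± 0.17) did not pass.

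The families of the receptor chaperones held most of the rises. Of 9 trafficking genes tested 5 were higher and 3 lower, against 20.6% and 20.8% of all genes. Their median of 0.71 is the value of Reep2, a gene below the array median on every array. Rtp4, the interferon-inducible relative of Rtp1 and Rtp2, rose from 76.6, 132.3 and 61.0 to 969.6, 976.7 and 785.4 (3.41 ± 0.32, adjusted p = 0.000701), with 2 of 3 ICAM1-negative arrays below the array median. Reep5, a membrane-shaping gene of broad expression, rose from 467.9, 1026 and 427.3 to 3154, 4540 and 3593 (2.66 ± 0.38, adjusted p = 0.00327). Both kept their calls when litter 1, 2 or 3 was left out. Reep3 rose by 1.11 ± 0.17 and Reep6 by 1.13 ± 0.25, but the first lost its call without litter 1 (adjusted p = 0.0611) or litter 3 (0.0529) and the second without litter 1 (0.0724), 2 (0.0695) or 3 (0.111) or ICAM1-positive array 3 (0.0565). Reep2 was below the array median on every array, and its call (adjusted p = 0.0331) was lost once values under that median were set to it (0.996), without litter 1, 2 or 3 (0.106, 0.11 and 0.195) and without any single array but ICAM1-negative array 1 (0.069 to 0.0969). Reep4 (0.30 ± 0.31) did not pass.

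Partners of the chaperones fell. Ric8b, which encodes a chaperone of the olfactory G protein, fell from 10951, 10350 and 11519 to 932.3, 1347 and 1515 (-3.14 ± 0.23, adjusted p = 0.000343). Atl1 and Spast, whose products atlastin and spastin act with Reep1 in shaping the endoplasmic reticulum, had differences of -2.56 ± 0.16 (adjusted p = 0.000241) and -0.998 ± 0.18 (adjusted p = 0.0077; 0.0977 without litter 1 and 0.0947 without litter 3). The interval of Reep1, from -0.40 to 0.49, lies above the fitted falls of both.

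In the stomatin family, Stom fell with Stoml3, from 16420, 15688 and 18620 to 1604, 2230 and 3256 (-2.90 ± 0.29, adjusted p = 0.000869). Stoml1 fell by 1.42 ± 0.32 (adjusted p = 0.0183), a call lost without litter 1 (0.0923), litter 3 (0.103), ICAM1-negative array 1 (0.0597) or ICAM1-negative array 3 (0.06). Stoml2, whose product sits in mitochondria, stood at 1249, 1144 and 1596 against 1249, 1102 and 1258 and did not pass (-0.13 ± 0.20, adjusted p = 0.652). Of 3 genes tested, 2 were lower and 0 higher, against 20.8% and 20.6% of all genes.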

How the data were processed

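The authors deposited linear intensities per probe set with 1 decimal; per the labels and the submitters' processing notes GCRMA was used, but the values have a mean of 500 on every array after trimming 2% from each end and unequal quantiles, so they were treated as scaled intensities. The program that made them is not given in the sources used here, and they carry no detection calls. Symbols came from the platform table (34958 probe sets with 1 gene, 932 with several). Of 45101 probe sets, 64 controls were left out, and 38694 with log2 intensity above 4 on at least 3 arrays were fitted with limma 3.58.1 (R 4.3.3, lmFit and eBayes, no block), which was tested on simulated data. A gene is its kept probe set with the highest mean. For a probe set under its array's median on every array of the dimmer group, the fold is a bound against that median, without an error.

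Same-numbered arrays share a litter, per the series' design text; deviations from group means correlated at 0.127, 0.199 and 0.0812 within litters. All 10 members, every probe set of theirs, the 6 lists of partner genes, the 11 marker lists and the 3 nearest genes per member were the genes to be named; members and lists were chosen with earlier results of these data known. Marker lists besides those in the results gave, as lower and higher of those tested, 5 and 0 of 5 for ciliated, 4 and 0 of 6 for microvillar and tuft, 0 and 2 of 6 for sustentacular, 1 and 0 of 2 for B cells, and 0 and 1 of 7 for fibroblasts and pericytes. Alternatives were a litter block, quantile normalization, other filters, a pseudocount of 16, raised low intensities, an intensity trend, averaged probe sets, and leaving out each litter or array. With 3 arrays a group, precision is limited by their number.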

Additional observations from a re-analysis of the deposited data

How the results depend on the processing

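Of the 18 member probe sets, 16 kept their direction of call and their side of the threshold under every one of the 16 alternatives that gave them a value (the stricter filter removed Reep1 probe set 1449662_at); the exceptions were Ebf1 probe set 1457441_at and Ldb1. No called member changed direction under these alternatives. Ldb1 was called lower with litter as a paired block (adjusted p = 0.0221), with the stricter filter of log2 above 7 (0.0307), a pseudocount of 16 (0.044), low intensities raised (0.0307) and an intensity trend (0.0224), and elsewhere was not (range 0.06 to 0.253). With the replicate block, 16 member probe sets were lower and 0 higher, and 6899 probe sets were higher and 7476 lower on the whole array. Leaving out a litter or an array gave 14 to 15 member probe sets lower and 0 higher, 3764 to 5854 probe sets higher and 3678 to 6013 lower on the whole array, and 2 to 8 partner genes higher and 13 to 21 lower. Counts of the smaller lists moved most without litter 1 or 3: the Ldb1 cofactors from 4 lower and 1 higher to 1 and 0 in both cases, the trafficking genes from 5 higher to 2 in both, the receptor choice genes from 6 lower to 3 without litter 3, and the stomatin family from 2 lower to 1 in both. Of the marker lists, microvillar cells gave 2 lower in place of 4 with the litter block, without litter 1 or 2, and without array 1 or 2 of either sort. The B cell, fibroblast and endothelial counts, of 0 or 1, moved to between 0 and 2 under various alternatives. Neuron, basal cell and macrophage counts stayed within 1.5 times. Reep2 reversed once low intensities were set to the median of their array (-0.0008, adjusted p = 0.996), since every array lay below that median. The causes of other changes were not tested. Dim signal limits Reep1 probe set 1449662_at, Ldb2, Lhx9 and Reep2, which were below the array median on every array.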
